A study of Mus musculus with 24 samples.

Results

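The poly(A)-binding proteins and their direct partners were followed as 6 genes, Pabpc1, Pabpc4, Pabpn1, Paip1, Paip2 and Paip2b, across 24 expression arrays of mouse brain RNA. Members were chosen by gene symbol, and every probe set that the array annotation assigns to one of these genes alone was kept. This gave 15 of the 45037 probe sets tested, for 6 of the 18193 genes with a probe set of their own. Pabpc1, Pabpc4 and Paip2b had 2 probe sets each, Pabpn1 and Paip1 had 4 each, and Paip2 had 1. The question was how the transcripts of this machinery were distributed between RNA pulled down through a tagged poly(A)-binding protein and the RNA it was set against, and whether they differed after sleep deprivation.

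Poly(A)-binding proteins coat the adenosine tail of messenger RNA. In the nucleus PABPN1 binds the growing tail, stimulates poly(A) polymerase and helps to set tail length. In the cytoplasm PABPC1 and its close relative PABPC4 take over the tail and contact the initiation factor eIF4G at the cap, which favours translation and shields the tail. PAIP1 resembles part of eIF4G and stimulates translation through PABP, while PAIP2 and PAIP2B displace PABP from the tail and inhibit translation. In mouse neurons PAIP2 is known to be cleaved on synaptic activity.

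The mice were males aged 12 weeks, give or take 1 week, sampled at zeitgeber time 6. They had been kept awake by gentle handling for 6 h from light onset, or had been left undisturbed. Arrays fell into 5 groups: 6 pull-downs from sleep-deprived mice, 6 pull-downs from undisturbed controls, 4 whole brains of sleep-deprived mice, 4 whole brains of undisturbed controls and 4 supernatants. Pull-down RNA came from formaldehyde-perfused brains, was captured with anti-FLAG beads from cells labelled as expressing Homer1a, the short form of a postsynaptic scaffold protein that neuronal activity induces, and was amplified. The supernatant was the RNA that such a pull-down left behind, labelled as Homer1a-negative cells. Whole-brain RNA was total RNA. The labels name the amplification for immunoprecipitated RNA only. For supernatant 13 the title and the source field give opposite sleep conditions, so the 4 supernatants formed 1 group and were not split by sleep condition. The mouse strain, the promoter that drives the tag, the species of its poly(A)-binding protein and whether a Pabpc1 probe set can detect the transgene's transcript are not given in the sources used here.

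Values are log2 intensities as the authors deposited them, and a log2 difference of 1 is a doubling. Array medians averaged 4.98 ± 0.38 in pull-down (SD, n = 12), 6.13 ± 0.07 (SD, n = 8) in whole brain and 6.15 ± 0.05 (SD, n = 4) in supernatant. Differences of pull-down are therefore given as deposited and, where it matters, after quantile normalization of the arrays and after centring each array on its median. The 18S ribosomal RNA control, which carries no tail, lay between 7.85 and 12.8 in pull-down, between 14.3 and 14.5 in whole brain and between 14.7 and 15.0 in supernatant. Pull-down SD 1 (12.6) and pull-down control 3 (12.8) had the highest 18S values among pull-down arrays, and pull-down control 11 stood apart, with r = 0.924 to the mean pull-down profile across probe sets. The log2 difference between the 3′ and 5′ probe sets of Gapdh averaged 4.92 ± 0.78 in pull-down, 2.75 ± 0.16 in whole brain and 2.43 ± 0.13 in supernatant. The mean log2 value over 10 neuron markers ranged from 9.49 to 11.2 in pull-down, from 10.6 to 10.8 in whole brain and from 10.2 to 10.4 in supernatant. Over 8 endothelial and pericyte markers that mean ranged from 4.48 to 5.58 in pull-down, from 7.20 to 7.44 in whole brain and from 6.33 to 6.94 in supernatant. Against whole brain, as deposited, 3 of 10 neuron markers were higher and 4 lower, and 1 of 8 astrocyte markers was higher and 6 lower. Of 7 oligodendrocyte markers 0 were higher and 6 lower, and all 8 microglia and all 8 endothelial and pericyte markers were lower. Over all genes, with 1 probe set each, 12.9% were higher and 68.8% lower. After centring, 6 neuron markers were higher and 1 lower, where 11553 of 18193 genes were higher and 1886 lower. The higher and lower counts were then 2 and 3 for astrocyte, 1 and 4 for oligodendrocyte, 0 and 4 for microglia and 0 and 6 for endothelial and pericyte markers. After quantile normalization 3 neuron markers were higher and 5 lower, where 7909 of 18193 genes were higher and 3229 lower. Rbfox3, a defining marker of mature neurons, differed by 1.45 ± 0.14 (SE) log2 units as deposited, the most positive value among the neuron markers. Camk2a (0.89 ± 0.18) and Gad1 (0.88 ± 0.17) were higher too. Tubb3 (-2.75 ± 0.26), Slc17a7 (-1.78 ± 0.36), Stmn2 (-0.99 ± 0.19) and Gad2 (-0.81 ± 0.15) were lower in pull-down. After centring Stmn2 (0.17) and Gad2 (0.34) turned positive, and after quantile normalization they stayed negative (-0.41 and -0.96). What part these differences in ribosomal RNA, transcript-end bias and cell types have in the values of the 6 genes was not tested.

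Of the 15 probe sets, 3 had a higher and 10 a lower pull-down than whole-brain level at an adjusted p under 0.05 by limma, and 2 passed in neither direction. Over all probe sets tested, 8.06% were higher and 76.3% lower, so the split of the members was near that of the array as a whole. The median log2 difference was -0.85 over the members and -0.78 over all probe sets. After quantile normalization, which moved the median of all probe sets to 0.09, 5 members were higher and 4 lower. After centring, with a median of 0.37 over all probe sets, 7 were higher and 4 lower. Over all genes, with 1 probe set each, 7909 of 18193 were higher and 3229 lower after quantile normalization. After centring 11553 of them were higher and 1886 lower. Shares of all probe sets called under these scalings are not given. The 3 higher as deposited were Paip2, Paip1 1451740_at and Pabpn1 1422849_a_at, and the 3 lowest differences belonged to Pabpn1 1422850_at, Pabpn1 1422848_a_at and Paip1 1441955_s_at. Only for those last 3 did the 12 pull-down arrays and the 8 whole-brain arrays not overlap, each with pull-down below (27.5% of all probe sets lay so), and none of the 15 lay wholly above (3.35% of all). Without pull-down SD 1, control 3 and control 11, the counts were 3 higher and 11 lower. In bulk RNA of this kind, fewer cells of a type and less RNA per cell cannot be told apart. Neither can be told apart here from the fixation, capture and amplification described for the pull-down RNA.

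**Figure D1:**
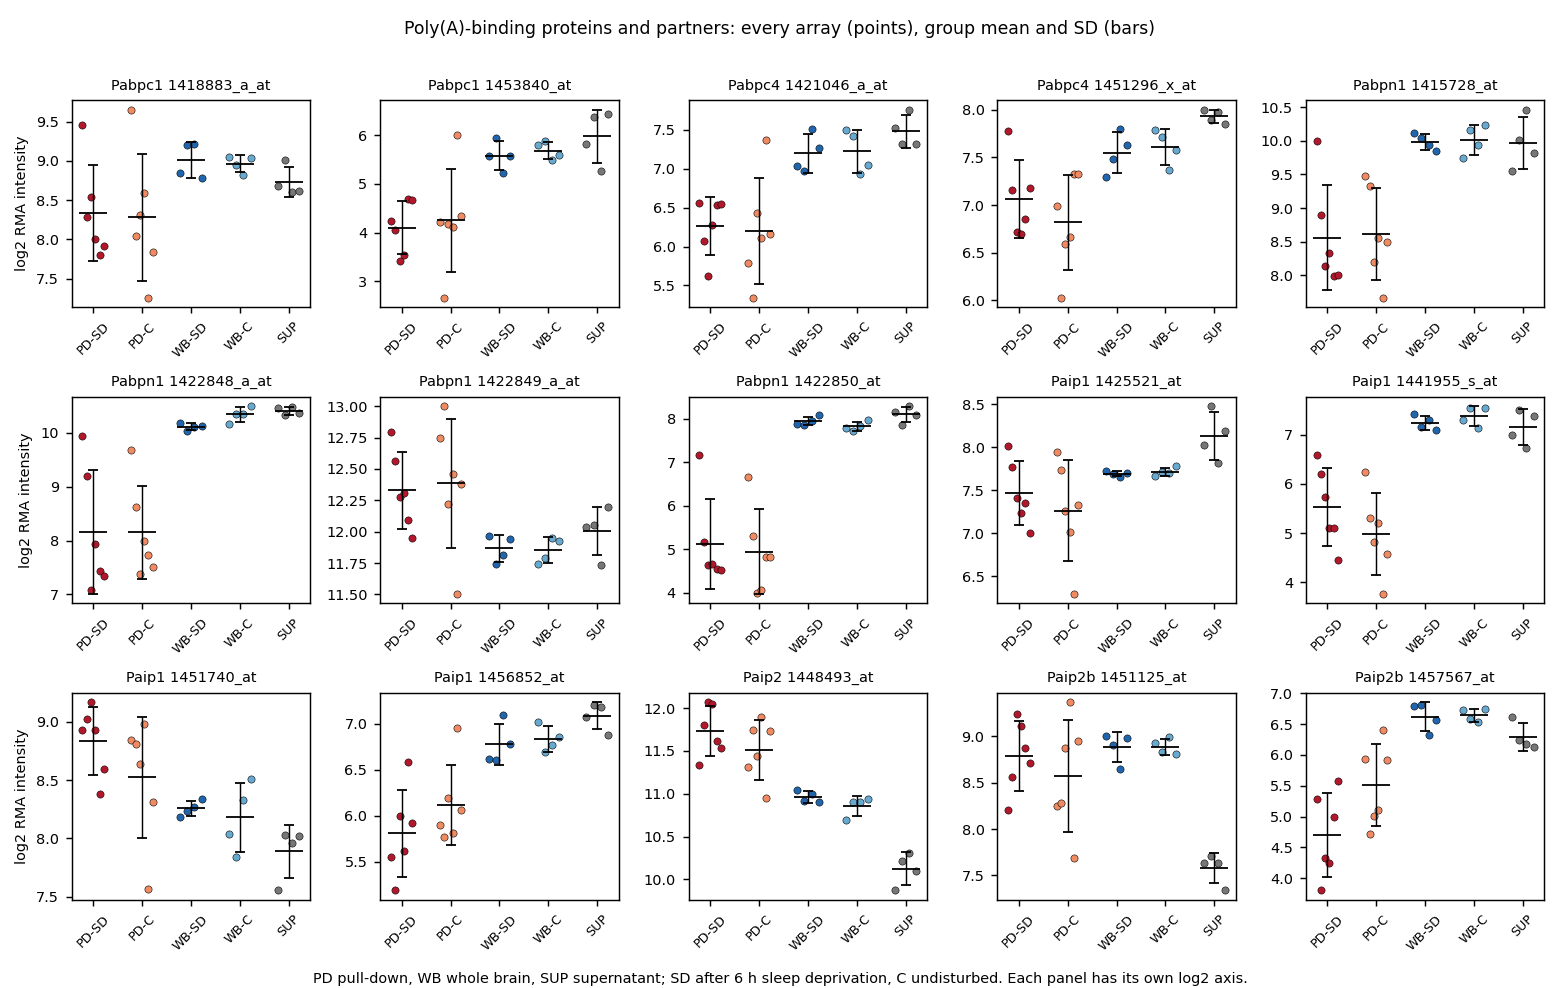
Log2 RMA intensity (vertical axis, own scale per panel) of the 15 probe sets in every array, as points, with the group mean and SD as bars. Groups run from pull-down after sleep deprivation (PD-SD) and pull-down control (PD-C) to whole brain after sleep deprivation (WB-SD), whole-brain control (WB-C) and supernatant (SUP). Paip2 1448493_at lies higher in both pull-down groups than in supernatant, Pabpn1 1422850_at lies lower in both pull-down groups than in the 3 others, and in every panel the points of PD-SD and PD-C overlap.

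Against supernatant the counts were again 3 higher and 10 lower, where 11.2% of all probe sets were higher and 67.4% lower. After quantile normalization they were 3 and 5, and after centring 4 and 3. Over all genes, with 1 probe set each, quantile normalization gave 6799 of 18193 higher and 3229 lower. Centring gave 9896 higher and 1665 lower. The 3 members higher as deposited were Paip2, Paip1 1451740_at and Paip2b 1451125_at. Without the same 3 arrays 4 were higher and 11 lower. In both comparisons, which share the pull-down arrays, 2 members were higher (7.46% of all probe sets) and 9 lower (65.8% of all). The 2 were Paip2 1448493_at and Paip1 1451740_at. Against supernatant the pull-down arrays lay wholly above for 1 member, Paip2, and wholly below for 4 (32.1% of all probe sets lay below). Paip2 and Paip1 1451740_at kept their calls in both comparisons when arrays were quantile normalized or centred. Pabpn1 1422848_a_at and 1422850_at were lower in both under the same 3 scalings.

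Among the inhibitors of translation, Paip2 was higher in pull-down than in either other extract under each of the 3 scalings. In pull-down after sleep deprivation its single probe set, 1448493_at, had a lowest value of 11.34, a median of 11.71 and a highest of 12.07, and in undisturbed pull-down 10.95, 11.59 and 11.89. Whole brain gave 11.04, 10.92, 10.996 and 10.90 after sleep deprivation and 10.69, 10.90, 10.91 and 10.93 in controls. The supernatants had 9.87, 10.22, 10.31 and 10.10. All pull-down values lay above all supernatant values (6.39% of all probe sets lay so), and 11 of 12 lay above the highest whole-brain value, the exception being pull-down control 11. The pull-down level of Paip2 was 1.64-fold that of whole brain, a difference of 0.71 ± 0.14 on the log2 scale (SE, adjusted p = 4.47e-05), and 94.8% of all probe sets had a lower difference. Against supernatant it was 2.82-fold higher, by 1.5 ± 0.17 (adjusted p = 2.92e-08). Quantile normalization put the difference from whole brain at 0.47, and centring at 1.87.

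Paip2b, the paralogue of Paip2, gave different values by probe set. Probe set 1451125_at had a lowest value of 8.21, a median of 8.80 and a highest of 9.24 in pull-down after sleep deprivation, and 7.69, 8.58 and 9.36 in undisturbed pull-down. It had 9.01, 8.91, 8.65 and 8.99 in whole brain after sleep deprivation, 8.92, 8.83, 8.99 and 8.81 in whole-brain controls, and 7.63, 7.71, 7.63 and 7.34 in supernatant. Pull-down and whole brain overlapped, and both lay higher than supernatant apart from pull-down control 11. Its difference from whole brain was -0.21 ± 0.17 (SE, adjusted p = 0.254, 95% interval -0.57 to 0.15), and that from supernatant was 1.10 ± 0.22 (adjusted p = 8.07e-05). Quantile normalized arrays put that from whole brain at 0.25 (adjusted p = 0.213), and centred arrays at 0.94, past the threshold (adjusted p = 0.00109). Probe set 1457567_at averaged 5.11 ± 0.77 in pull-down, 6.63 ± 0.16 in whole brain and 6.29 ± 0.23 in supernatant (SD). Its deposited difference from whole brain was -1.52 ± 0.22 (adjusted p = 5.90e-07), whereas quantile normalization gave -0.34 (adjusted p = 0.0643) and centring -0.37, past the threshold (adjusted p = 0.0296). In pull-down it lay above the array median on 7 of 12 arrays.

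The translation stimulator Paip1 also split by probe set. Probe set 1451740_at had a lowest value of 8.38, a median of 8.93 and a highest of 9.16 in pull-down after sleep deprivation, and 7.57, 8.72 and 8.98 in undisturbed pull-down. Whole brain gave 8.18, 8.24, 8.27 and 8.34 after sleep deprivation and 8.04, 7.85, 8.33 and 8.51 in controls, and the supernatants gave 7.55, 8.03, 7.96 and 8.02. Among pull-down arrays only control 11 reached down into the supernatant range, as did 1 whole-brain control (7.85). This probe set was higher in pull-down by 0.46 ± 0.16 than in whole brain (adjusted p = 0.0117) and by 0.79 ± 0.21 than in supernatant (adjusted p = 0.00128). Within the undisturbed groups alone the difference from whole brain did not pass (0.34, adjusted p = 0.175).

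Paip1 1441955_s_at, a kind of probe set whose probes may bind transcripts of several genes, ran the other way. It had a lowest value of 4.45, a median of 5.42 and a highest of 6.58 in pull-down after sleep deprivation, and 3.76, 5.01 and 6.24 in undisturbed pull-down. Whole brain gave 7.41, 7.16, 7.30 and 7.09 after sleep deprivation and 7.29, 7.54, 7.13 and 7.55 in controls, and the supernatants gave 7.00, 7.51, 6.72 and 7.39. No pull-down array reached the values of the other extracts, and 7 of 12 lay above their array median. The difference from whole brain was -2.05 ± 0.25 (SE, adjusted p = 5.92e-08), and it stayed past the threshold when arrays were quantile normalized (-1.09) or centred (-0.90). That from supernatant was -1.90 ± 0.32 (adjusted p = 8.86e-06). It still passed after quantile normalization (-0.97, adjusted p = 0.0473) but not after centring (-0.72, adjusted p = 0.136). Of the remaining 2 Paip1 probe sets, 1456852_at differed by -0.85 ± 0.17 as deposited (adjusted p = 5.94e-05) but by 0.34 with quantile normalized and 0.31 with centred arrays, each then higher and past the threshold. Probe set 1425521_at differed by -0.34 ± 0.17 as deposited (adjusted p = 0.0715) and by 0.48 and 0.82 under those scalings, also past the threshold. No direction can be given for these 2.

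**Figure D2:**
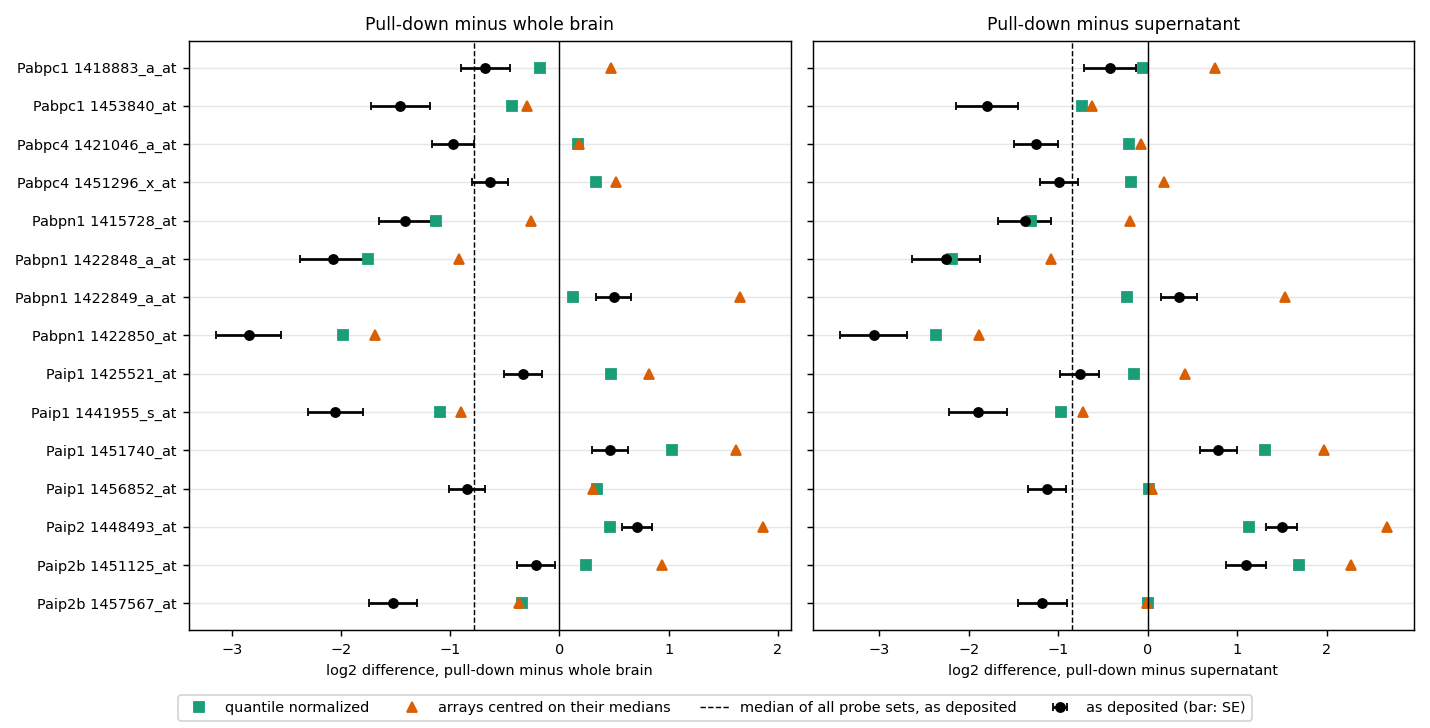
Log2 difference (horizontal axis) of the 15 probe sets between pull-down and whole brain (left) and between pull-down and supernatant (right), as deposited with the SE (black), after quantile normalization (squares) and after centring arrays on their medians (triangles). The dashed line is the median of all probe sets as deposited, at -0.78 and -0.85. Paip2 and Paip1 1451740_at stay right of 0 under all 3 scalings in both panels, and Pabpn1 1422848_a_at and 1422850_at stay left of it.

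The nuclear protein's gene, Pabpn1, held both the most negative difference among the members and a positive one. Probe set 1422850_at had a lowest value of 4.52, a median of 4.65 and a highest of 7.17 in pull-down after sleep deprivation, and 4.01, 4.82 and 6.66 in undisturbed pull-down. Whole brain gave 7.88, 7.86, 7.94 and 8.07 after sleep deprivation and 7.78, 7.71, 7.83 and 7.96 in controls, and the supernatants gave 8.16, 7.85, 8.29 and 8.08. All pull-down values lay below all others, and the 2 highest of them belonged to pull-down SD 1 and control 3, the arrays with the most 18S. The difference from whole brain was -2.85 ± 0.30 (SE, adjusted p = 3.04e-09), and 2.16% of all probe sets had a lower one. In pull-down this probe set lay near the array median, 0.05 above it on average and above it on 5 of 12 arrays. The values as deposited carry no detection calls, so no fold is given. Against supernatant it was -3.06 ± 0.38 (adjusted p = 6.68e-08). Without those 2 arrays the difference from whole brain was -3.22.

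Probe set 1422849_a_at of the same gene was not lower in pull-down. It had a lowest value of 11.95, a median of 12.29 and a highest of 12.79 in pull-down after sleep deprivation, and 11.50, 12.42 and 13.001 in undisturbed pull-down. Whole brain gave 11.97, 11.75, 11.81 and 11.95 after sleep deprivation and 11.74, 11.79, 11.95 and 11.93 in controls, and the supernatants gave 12.04, 12.05, 11.74 and 12.20. The extracts overlapped. Its pull-down level exceeded that of whole brain by 0.50 ± 0.16 (adjusted p = 0.00559), but not past the threshold after quantile normalization (0.13, adjusted p = 0.372). Against supernatant it did not pass as deposited (0.35 ± 0.20, adjusted p = 0.107). After centring it was higher by 1.65 than whole brain (adjusted p = 2.46e-06) and by 1.53 than supernatant (adjusted p = 0.000136). Within the sleep-deprived groups alone the deposited difference from whole brain missed the threshold too (adjusted p = 0.0665). The other 2 probe sets of Pabpn1, 1415728_at and 1422848_a_at, had lower levels in pull-down as deposited, with differences from whole brain of -1.41 ± 0.24 (adjusted p = 6.45e-06) and -2.07 ± 0.30 (adjusted p = 7.23e-07) on the log2 scale. After centring, 1422848_a_at kept its call (-0.92, adjusted p = 0.0237), and 1415728_at did not (-0.26, adjusted p = 0.454), although it passed after quantile normalization (-1.13, adjusted p = 2.52e-06). Pull-down SD 1 and control 3 again had the highest pull-down values of both.

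Because probe sets of one gene went apart, their difference was also followed within arrays, where a scale factor common to an array cancels. A difference in spread between arrays does not cancel. The SD over the probe sets of an array averaged 2.07 in pull-down (range 1.61 to 2.34), 1.92 in whole brain and 1.87 in supernatant. For each of the 5 genes with several probe sets, the pair with the highest and the lowest mean level over the whole-brain and supernatant arrays was taken. This measure was chosen after the values were seen, so it is given as a description, with no test. Only its change between extracts is read, since the levels of different probe sets cannot be set against each other.

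For Pabpn1 the difference between 1422849_a_at and 1422850_at was 7.33 ± 0.81 in pull-down (SD, n = 12), with a range of 5.63 to 8.39, 3.98 ± 0.10 in whole brain (n = 8) and 3.91 ± 0.33 in supernatant (n = 4). It was wider in pull-down by 3.35 than in whole brain and by 3.42 than in supernatant, and every pull-down array lay above the others. Over the 6 pairs of Pabpn1 probe sets, each taken as the brighter less the dimmer, the change against whole brain ran from -0.66 to 3.35, and all 3 pairs with 1422849_a_at widened by 1.91 or more. For Paip1, 1451740_at less 1456852_at gave 2.72 ± 0.86 in pull-down, 1.41 ± 0.25 in whole brain and 0.80 ± 0.27 in supernatant. All pull-down arrays but control 11 (0.62) lay above the other extracts. Over the 6 Paip1 pairs the change against whole brain ran from -1.21 to 2.52, so it depended on the pair.

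For Paip2b, 1451125_at less 1457567_at gave 3.57 ± 1.10 in pull-down, 2.26 ± 0.14 in whole brain and 1.29 ± 0.22 in supernatant, and the pull-down and whole-brain arrays overlapped. The pairs of Pabpc1 and Pabpc4 overlapped between these extracts too, with changes against whole brain of 0.78 and 0.34. Without pull-down SD 1 and control 3, the arrays with the most 18S, the widening against whole brain was 3.64 for Pabpn1, 1.22 for Paip1 and 1.5 for Paip2b. After quantile normalization, which gives all arrays the same spread, it was 2.11, 0.68 and 0.59 in the same order of genes. For Pabpc1 and Pabpc4 the changes were then 0.25 and 0.16. The labels and annotation used here do not place these probe sets along their transcripts. What part the Gapdh end bias given above and the spread of the arrays have in these differences was not tested.

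**Figure D3:**
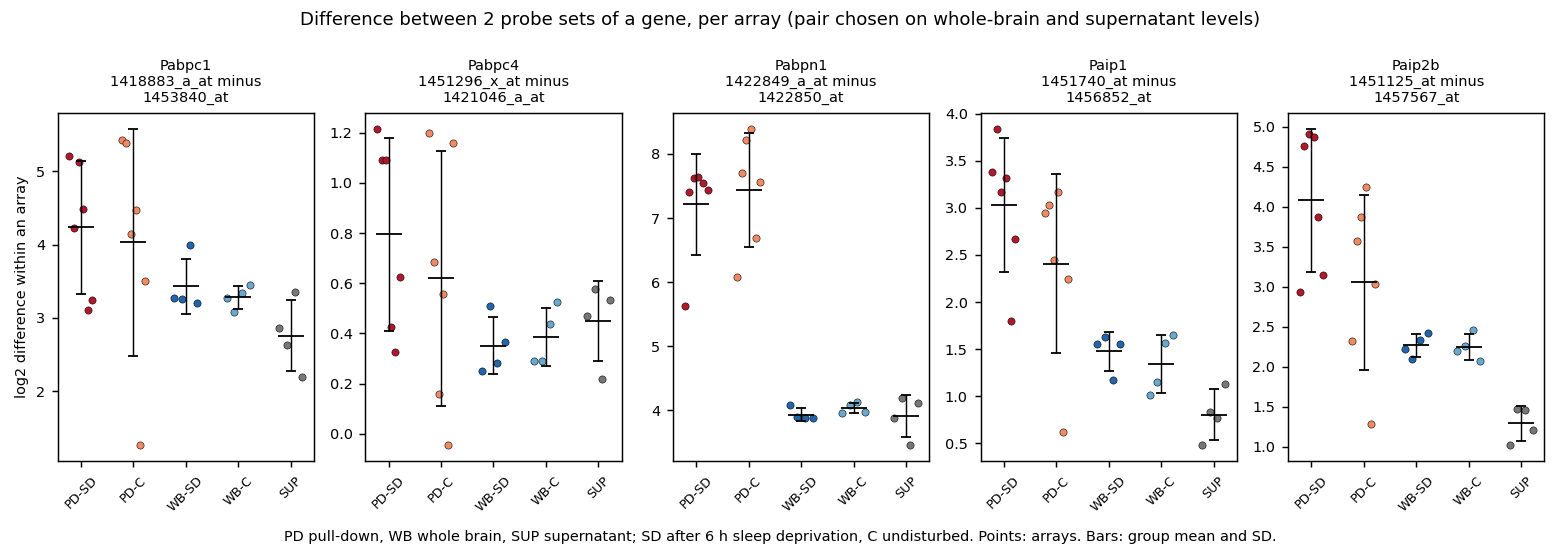
Log2 difference between a pair of probe sets of the same gene (vertical axis, own scale per panel) on each array, as points, with the group mean and SD as bars, for the 5 genes with several probe sets. For Pabpn1 the pull-down arrays lie between 5.63 and 8.39 and the whole-brain arrays between 3.87 and 4.12, and for Paip1 pull-down lies between 0.62 and 3.84 and whole brain between 1.02 and 1.65.

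The cytoplasmic poly(A)-binding proteins were not higher in the pull-down as deposited. Pabpc1 1418883_a_at had a lowest value of 7.80, a median of 8.15 and a highest of 9.45 in pull-down after sleep deprivation, and 7.26, 8.18 and 9.65 in undisturbed pull-down. Whole brain gave 8.84, 9.20, 9.21 and 8.78 after sleep deprivation and 9.05, 8.95, 8.82 and 9.04 in controls, and the supernatants gave 8.69, 9.01, 8.61 and 8.62. The 2 highest values of all 24 arrays were again those of pull-down SD 1 and control 3, and the other 10 pull-down arrays lay below every whole-brain array. The difference from whole brain was -0.68 ± 0.23 (SE, adjusted p = 0.00795), and 57.3% of all probe sets had a lower one. Quantile normalized arrays gave -0.18 (adjusted p = 0.326) and centred arrays 0.48 (adjusted p = 0.129), and as deposited it passed neither within the sleep-deprived groups alone (adjusted p = 0.0618) nor within the undisturbed groups alone (adjusted p = 0.0578). Against supernatant it was -0.42 ± 0.29 as deposited (adjusted p = 0.175), but it passed without pull-down control 3 (-0.56, adjusted p = 0.0362). The second probe set, 1453840_at, averaged 4.18 ± 0.81 in pull-down, 5.63 ± 0.23 in whole brain and 5.97 ± 0.55 in supernatant (SD), above the array median on 1 of 12 pull-down and 0 of 8 whole-brain arrays. It was lower in pull-down than in supernatant under all 3 scalings (-1.80, -0.74 and -0.62), but its difference from whole brain, -1.46 ± 0.27 as deposited, did not pass with quantile normalized (-0.43, adjusted p = 0.113) or centred arrays (-0.30, adjusted p = 0.184).

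Pabpc4, the relative of Pabpc1 first described in activated human T cells, took its direction from the scaling. Probe set 1421046_a_at averaged 6.24 ± 0.53 in pull-down, 7.21 ± 0.24 in whole brain and 7.48 ± 0.21 in supernatant (SD), and 1451296_x_at averaged 6.94 ± 0.45, 7.58 ± 0.19 and 7.93 ± 0.07 in the same extracts. As deposited both had lower pull-down levels, with log2 differences from whole brain of -0.98 ± 0.19 (adjusted p = 5.71e-05) and -0.64 ± 0.17 (adjusted p = 0.00109). After quantile normalization the differences were 0.17 and 0.33, and after centring 0.18 and 0.52, with 1451296_x_at then past the threshold in the upward direction. The deposited differences were close to the median of all probe sets, -0.78.

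Whole brain was also set against supernatant. Of the 15 probe sets 2 were higher in whole brain and 0 lower, where 8.89% of all probe sets were higher and 2.01% lower. The 2 were probe sets of the inhibitors, but the other Paip2b probe set, 1457567_at, was not called (0.35 ± 0.29, SE, adjusted p = 0.555). Paip2b 1451125_at was higher in whole brain by 1.31 ± 0.23 (SE, adjusted p = 0.000355), and Paip2 by 0.79 ± 0.19 (adjusted p = 0.00493). For these 2 members every whole-brain array lay above every supernatant (12.4% of all probe sets lay so). For 2 others every whole-brain array lay below (8.65% of all), without a call: Paip1 1425521_at differed by -0.43 ± 0.23 (adjusted p = 0.292) and Pabpc4 1451296_x_at by -0.35 ± 0.22 (adjusted p = 0.390). Both passed after quantile normalization (adjusted p = 0.0317 and 0.0288). The SE in this comparison come from the fit of all arrays, which pools the spread of pull-down with that of the other extracts. For Paip1 1425521_at the SD was 0.48 in pull-down, 0.04 in whole brain and 0.28 in supernatant. For Pabpc4 1451296_x_at it was 0.45, 0.19 and 0.07. The missing calls therefore do not reflect the spread of whole brain and supernatant alone. Centring left Paip2b 1451125_at past the threshold (adjusted p = 0.00882), while Paip2 no longer passed it (0.81, adjusted p = 0.0733). For Paip2 the order of the group means was thus pull-down after sleep deprivation, pull-down control, whole brain after sleep deprivation, whole-brain control, supernatant. Of the neighbours in that order, only whole-brain control and supernatant did not overlap.

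Sleep deprivation left no member past the threshold. In pull-down (6 against 6 arrays) 0 of 15 probe sets were called by limma, as were 0% of all probe sets, of which 430 of 45037 had an unadjusted p under 0.05. That is a smaller share than the 0.05 that no effect at all would give. The 18S control ran from 8.54 to 12.6 in sleep-deprived and from 7.85 to 12.8 in control pull-down and was not modelled. Its part in the spread was not tested, so the absence of calls in pull-down does not show an absence of change. In whole brain (4 against 4) 0 of 15 were called, where 0.0355% of all probe sets were higher and 0.0111% lower and 4926 had an unadjusted p under 0.05. In all 15 probe sets the arrays of sleep-deprived and undisturbed mice overlapped in both extracts. Differences ran from -0.81 to 0.55 in pull-down, with SE of 0.24 to 0.48, and from -0.23 to 0.12 in whole brain, with SE of 0.10 to 0.16.

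The member with the lowest p in pull-down was Paip2b 1457567_at. It had a lowest value of 3.80, a median of 4.67 and a highest of 5.57 after sleep deprivation, and 4.71, 5.52 and 6.41 in controls, so that the groups overlapped. The difference was -0.81 ± 0.35 (SE, 95% interval -1.54 to -0.08, unadjusted p = 0.0317, adjusted p = 1.00), and in whole brain it was -0.02 ± 0.13 (95% interval -0.30 to 0.25). The other Paip2b probe set differed by 0.22 ± 0.29 in pull-down, the opposite sign. In whole brain the lowest p was that of Pabpn1 1422848_a_at, with 10.19, 10.04, 10.11 and 10.13 after sleep deprivation and 10.17, 10.35, 10.35 and 10.50 in controls. That difference was -0.23 ± 0.11 (95% interval -0.46 to 0.01, unadjusted p = 0.0562, adjusted p = 0.469).

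For Paip2 the 95% interval of the sleep deprivation difference was -0.28 to 0.72 in pull-down and -0.12 to 0.33 in whole brain. For Pabpc1 1418883_a_at it was -0.72 to 0.81 in pull-down and -0.23 to 0.32 in whole brain. A change by 1 log2 unit in either direction lay outside the intervals of these 2 probe sets. The other Pabpc1 probe set, 1453840_at, had an interval of -1.02 to 0.71 in pull-down, which holds a fall of that size. The difference between the effects in pull-down and in whole brain, tested as an interaction on the 20 arrays of both extracts, was called for 0 of 15 members and for 0% of all probe sets (152 of all, and 0 members, at an unadjusted p under 0.05). It ranged from -0.79 ± 0.46 for Paip2b 1457567_at to 0.68 ± 0.53 for Paip1 1441955_s_at.

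**Figure D4:**
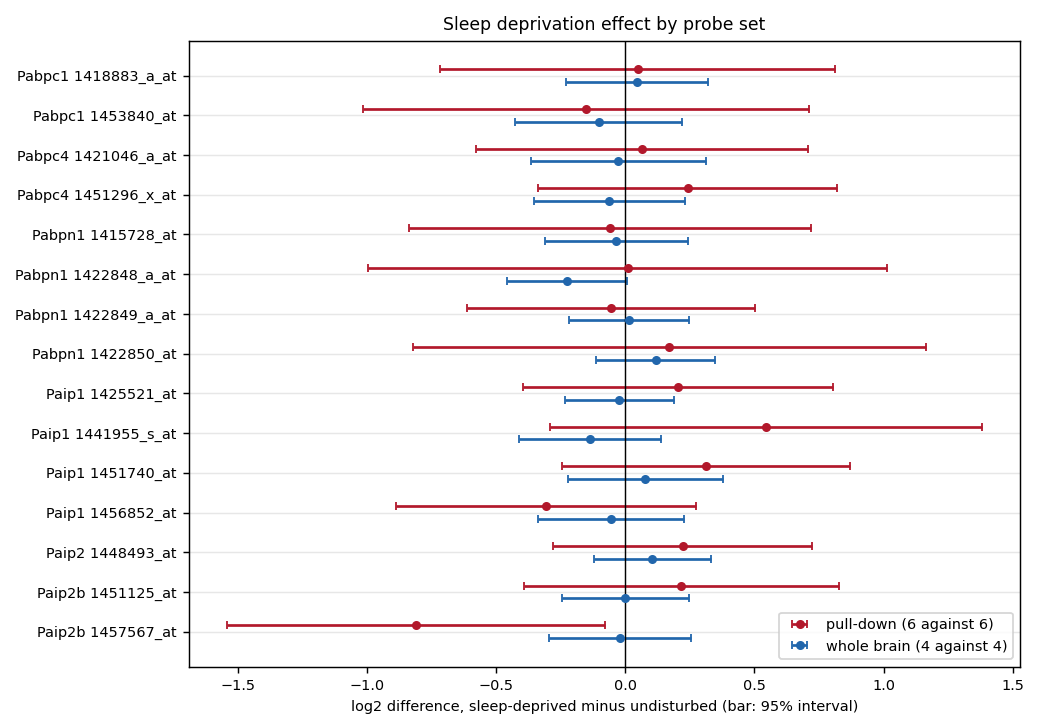
Log2 difference between sleep-deprived and undisturbed mice (horizontal axis) for the 15 probe sets in pull-down (6 against 6 arrays) and in whole brain (4 against 4), with 95% intervals as bars. Intervals in whole brain are narrower, and only that of Paip2b 1457567_at in pull-down, -1.54 to -0.08, leaves out 0 before adjustment over all probe sets.

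The other genes of the tail pathway were described by 6 lists, with 1 probe set for each of the 78 genes measured of 82 listed. Against whole brain 21 were higher and 41 lower in pull-down, with a median difference of -0.43, where 12.9% of the 18193 genes were higher and 68.8% lower, with a median of -0.64. After quantile normalization the split was 38 higher and 17 lower, where 7909 of the 18193 genes were higher and 3229 lower. After centring it was 51 and 6, where 11553 of the 18193 genes were higher and 1886 lower. With probe sets of the kind _at alone, the kind designed to be unique, 13 of 71 genes were higher and 47 lower as deposited. The list with most genes higher was that of deadenylation, the shortening of the tail, and held enzymes together with partners that are not enzymes. Of 19 genes measured, 11 were higher and 7 lower, with a median of 0.58. Cnot2, a non-catalytic subunit of the CCR4-NOT deadenylase, averaged 11.09 ± 0.31 in pull-down and 8.23 ± 0.19 in whole brain (SD), a difference of 2.86 ± 0.15 (SE, adjusted p = 1.78e-14). Cnot7, one of its catalytic subunits, differed by 2.18 ± 0.16. Both were read from probe sets that may bind several genes. Of the 11 higher genes 7 were read from probe sets of the kinds _a_at, _s_at or _x_at. With _at probe sets alone 5 of 15 measured deadenylation genes were higher and 9 lower, and the list's median was -0.71, so its direction turned. Cnot3, another non-catalytic subunit, was among the lower genes with a difference of -2.16 ± 0.24, as was the catalytic Cnot6l with -1.44 ± 0.16.

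Of 7 other members of the poly(A)-binding family, 1 was higher and 2 lower, with a median of -0.36. The one was Zc3h14, a zinc finger protein that binds poly(A) in the nucleus, which averaged 10.71 ± 0.24 in pull-down and 9.42 ± 0.16 in whole brain (SD) and differed by 1.30 ± 0.14 (SE, adjusted p = 6.34e-09). Pabpn1l (-0.83) and Pabpc1l (-0.75), known from the germ line and early embryo, were lower as deposited and had positive differences under both other scalings. Of 12 measured proteins that bind PABP, 0 were higher and 8 lower, with a median of -0.52. The lowest were Tnrc6a (-1.93 ± 0.25) and Tnrc6b (-1.66 ± 0.19), which link Argonaute to PABP and to the deadenylases, and both stayed negative under the other scalings.

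Among 19 genes of nuclear cleavage and polyadenylation 3 were higher and 11 lower (median -0.54). Wdr33 (-2.50 ± 0.22) and Cpsf2 (-2.17 ± 0.28), subunits of the cleavage and polyadenylation specificity factor, were the lowest, while Cstf2t (0.96 ± 0.18), of the cleavage stimulation factor, and Rbbp6 (0.94 ± 0.15) were the highest. Of 14 genes of cap-to-tail initiation and release 3 were higher and 9 lower (median -0.46). The cap-binding Eif4e was higher by 0.93 ± 0.14, and Eif4g2, a relative of eIF4G that lacks its PABP contact, by 1.27 ± 0.14 from a probe set that may bind several genes. Eif4b, a helper of the helicase eIF4A, and the scaffold Eif4g3 differed by -1.29 ± 0.19 and -1.23 ± 0.25.

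Of 7 genes listed under cytoplasmic polyadenylation 3 were higher and 4 lower (median -0.40). This list holds Cpeb genes and poly(A) polymerases, not all of which are confined to the cytoplasm. Cpeb4 (1.15 ± 0.16) and Cpeb2 (0.86 ± 0.18) were the highest, and Cpeb1 (-1.03 ± 0.27) and the poly(A) polymerase Tent4a (-0.88 ± 0.14) the lowest, both of these turning positive after centring (0.13 and 0.28). The 3 Cpeb genes named encode proteins that bind the 3′ untranslated regions of messages and regulate their translation. No gene of the 6 lists was called for sleep deprivation by limma in pull-down or in whole brain, where 0% of the 18193 genes were called in pull-down, and 0.0605% were higher and 0.0055% lower in whole brain.

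**Figure D5:**
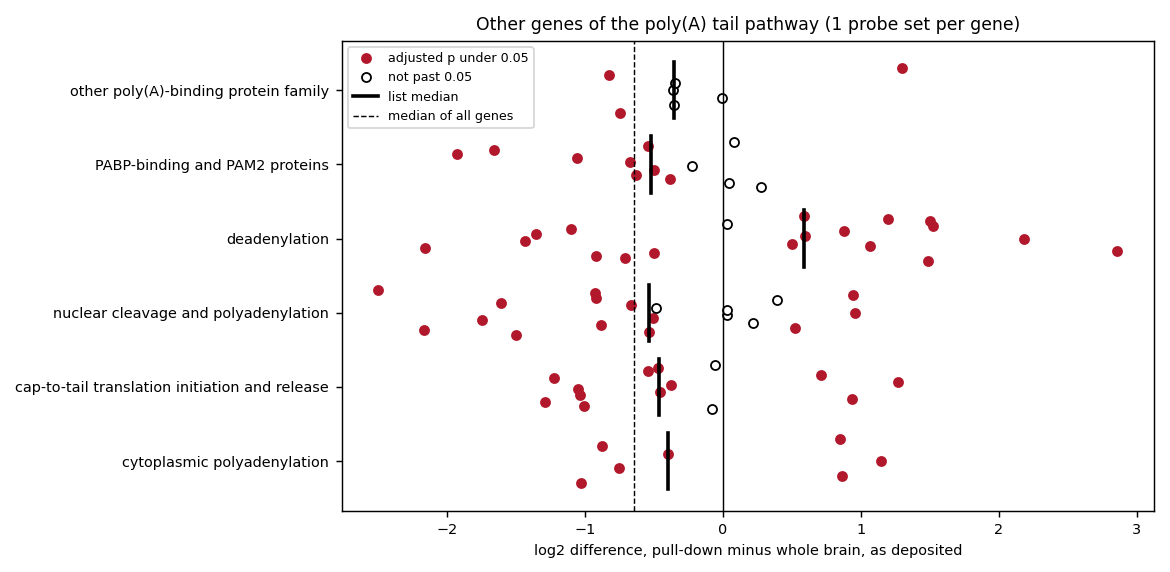
Log2 difference between pull-down and whole brain (horizontal axis), as deposited, for the 78 genes of the 6 lists, 1 point per gene, filled where the adjusted p was under 0.05, with the list median as a bar. The dashed line is the median of all genes, -0.64. The median of the deadenylation list lies at 0.58 (-0.71 with _at probe sets alone) and those of the other lists between -0.54 and -0.36.

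By levels relative to the array median, the genes most like each member over the 24 arrays were ranked by Pearson r, as a description. Paip2 was most like Eloc (r = 0.996) and Psmd6 (0.994), Pabpn1 1422849_a_at like Reep5 (0.989) and Rab2a (0.986), and Paip2b 1451125_at like Spast (0.989) and Tmem30a (0.986). Paip1 1451740_at was most like Pqbp1 (0.986) and Sod1 (0.986), and Pabpc1 1418883_a_at like Zfp955b (0.950) and Ptk2b (0.950). Reep5, Rab2a, Pqbp1 and Sod1 were read from probe sets that may bind several genes. For Pabpc4 1451296_x_at the highest values were lower, with Ambra1 (0.856) and Tspan15 (0.848). The arrays share 3 extracts, and the points of such a correlation are not independent of the differences between extracts given above.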

How the data were processed

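For each array the authors deposited log2 intensities of probe sets, computed by RMA with affy per the submitters' processing notes. The sources used here give neither versions nor whether extracts were normalized together. Array medians differ between extracts, so the values still hold array-wide differences. The values were used as deposited, without a filter on low levels. Of 45101 probe sets 64 controls were left out. The array annotation gave 1 gene symbol for 34945 of the 45037 tested, several for 932 and none for 9160. No pair of arrays held identical values (highest r = 0.991).

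The fits used limma 3.58.1 (lmFit, eBayes) in R 4.3.3, two-sided, with Benjamini-Hochberg adjustment over all 45037 probe sets and a threshold of 0.05. Extracts were compared in 1 fit of all 24 arrays and 5 groups, where the sleep-deprived and control groups of pull-down, and of whole brain, counted equally. Sleep deprivation was fitted on each extract's own arrays, and the interaction on 20. The fits were tested on simulated data. Named genes are all member probe sets and, for each member, its 2 most alike genes. Per list, up to 2 genes with the most positive and up to 2 with the most negative difference past the threshold are named. Lists and cell type markers used 1 probe set per gene, that with the highest mean over all 24 arrays. This choice depends on the pull-down levels too. Members, lists and rule were chosen with earlier results of these data known. Arrays have no read depth, and their number limits precision. Nothing in the labels ties arrays to separate animals by name, so p-values measure the spread between these samples. Alternatives were other scalings, array weights, an intensity trend, a filter on low levels, and arrays left out.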

Additional observations from a re-analysis of the deposited data

Results flagged for a closer look

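Of 75 groups of arrays examined (15 probe sets in 5 groups), 4 held a single array far from its group by Dixon's criterion, which chance meets in about 1 in 20 groups. Pabpn1 1422850_at was 7.17 in pull-down SD 1, where the other 5 arrays lay between 4.52 and 5.16. This is one of the 2 pull-down arrays with the most 18S, and without them the pull-down difference from both other extracts was still called. Paip1 1456852_at was 6.95 in pull-down control 11, against 5.77 to 6.19 in the other 5 arrays. Paip1 1451740_at was 7.55 in supernatant 13, the array with conflicting labels, against 7.96 to 8.03 in the other 3. Paip2 1448493_at was 10.69 in whole-brain control 22, against 10.90 to 10.93 in the other 3.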

How the results depend on the processing

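The scaling of the arrays moved the counts most. Quantile normalization gave 5 members higher and 4 lower against whole brain, 5 lower against supernatant, 4 lower in both, 2 lower in whole brain than in supernatant, and 38 pathway genes higher and 17 lower. Centring gave 7 higher and 4 lower against whole brain, 3 lower against supernatant, 4 higher and 2 lower in both, 1 higher in whole brain than in supernatant, and 51 pathway genes higher and 6 lower. Array weights gave 1 member lower in whole brain than in supernatant, and using only probe sets of the kind _at gave 13 pathway genes higher and, added after seeing the data, 5 deadenylation genes higher and a median of -0.71 for that list. Signs turned under quantile normalization against whole brain for Pabpc4 1421046_a_at (0.17) and 1451296_x_at (0.33) and Paip1 1425521_at (0.48) and 1456852_at (0.34), and against supernatant for Paip1 1456852_at (0.014) and Paip2b 1457567_at (0.0049). Under centring they turned against whole brain for Pabpc1 1418883_a_at (0.48), both Pabpc4 probe sets (0.18 and 0.52), Paip1 1425521_at (0.82) and 1456852_at (0.31) and Paip2b 1451125_at (0.94), and against supernatant for Pabpc4 1451296_x_at (0.19) and Paip1 1425521_at (0.41) and 1456852_at (0.049). Centring added the same amount to the differences of all probe sets in a comparison, set by the array medians. Why those medians differ between extracts, and what lies behind the turns under quantile normalization, was not tested. Sign changes between a pair of values that both missed the threshold were not counted as turned. Within arrays, other pairs of probe sets turned the sign for Pabpn1 (-0.66 against whole brain, -0.88 against supernatant) and Paip1 (-1.21 and -0.77), also added after seeing the data. Leaving out 1 array at a time gave 3 members higher and 10 to 11 lower against whole brain, 3 to 4 and 10 to 11 against supernatant, 2 and 0 for whole brain against supernatant, 20 to 24 and 40 to 43 pathway genes, and 0 for sleep deprivation throughout. Single calls changed for Pabpc1 1418883_a_at against supernatant (called without pull-down control 3), Pabpn1 1422849_a_at against supernatant (called without pull-down control 11, adjusted p = 0.0158) and Paip1 1425521_at against whole brain (called without pull-down SD 1, control 3 or control 4, lowest adjusted p = 0.0268). No paired analysis was possible because the groups compared share fewer than 2 replicate numbers.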
